A study of Mus musculus with 12 samples.

Results

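The genes described here are Ces1d, Cdo1, Cyp2e1, Mgst1 and Inmt. Those other than Cdo1 encode enzymes that oxidise, hydrolyse or conjugate foreign compounds and reactive metabolites, and the enzyme of Cdo1 oxidises the amino acid cysteine. All were taken as a group because their transcripts had higher values in QF than in TA muscle of control mice, and Inmt also because it had lower values in QF of mice without dysferlin. These 5 genes, of 8251 on the array, were covered by 6 probe sets (2 for Ces1d and 1 for each of the others), and all 6 were among the 10331 probe sets above a floor for dim signals. Dysferlin (Dysf) is a muscle membrane protein that takes part in resealing membrane tears. Total RNA was measured on 12 single-channel arrays, 3 for each of 4 groups of mice aged 3 weeks. They were QF of C57BL/10-SJL.Dysf mice (Dysf -/-, called Dysf_null here), QF of C57BL/10 mice (Dysf +/+, called Control), TA of Dysf_null mice and TA of Control mice. QF is the quadriceps femoris of the thigh, and TA is the tibialis anterior of the lower leg. The Dysf_null line carries an allele from the SJL strain on a C57BL/10 background, and SJL alleles of genes near Dysf may have come with it. Nothing used here states whether an array held 1 mouse or several, or that each array had its own animals, so p-values measure the spread between arrays, which may be technical.

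Foreign compounds are cleared in 2 broad steps, a first that adds or uncovers a polar group by oxidation or hydrolysis and a second that attaches glutathione, sulfate, a methyl group or a sugar. Cyp2e1 is a cytochrome P450 that oxidises ethanol and small solvents, and Ces1d is a carboxylesterase that cleaves ester drugs and stored triacylglycerol. Mgst1 is a membrane-bound glutathione transferase, Cdo1 is the dioxygenase that starts the breakdown of cysteine towards taurine and sulfate, and Inmt transfers a methyl group from S-adenosylmethionine to indole amines and related compounds. Cyp2e1, Ces1d, Cdo1 and Mgst1 are abundant in liver and are also expressed in fat, and Inmt is abundant in lung.

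RefSeq promoters on GRCm38.p6 were held for 3 of the 5 genes, Cyp2e1, Mgst1 and Inmt, and the 100 bases before each start are printed because the first pair and Inmt differed in their pattern over the 4 groups. The Cyp2e1 stretch is chr7:140763719-140763818 on the plus strand, the Mgst1 stretch chr6:138140427-138140526 on the plus strand and the Inmt stretch chr6:55174991-55175090 on the minus strand. Each is written 5′ to 3′ in the direction of the gene, and capitals mark the matches described after them.
Cyp2e1: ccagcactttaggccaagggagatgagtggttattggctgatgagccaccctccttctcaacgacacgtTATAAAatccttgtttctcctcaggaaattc
Mgst1: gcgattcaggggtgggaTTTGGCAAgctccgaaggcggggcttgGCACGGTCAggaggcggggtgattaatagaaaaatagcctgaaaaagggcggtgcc
Inmt: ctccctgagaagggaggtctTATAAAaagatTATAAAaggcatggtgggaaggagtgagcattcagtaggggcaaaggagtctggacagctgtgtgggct
In Cyp2e1 the capitals mark a TATAAA match 31 to 26 bases before the start, and in Inmt they mark a pair of TATAAA matches 80 to 75 and 69 to 64 bases before it. In Mgst1 they mark a C/EBP match (TTGCNNAA, read on the opposite strand) and the core of an antioxidant response element (TGACNNNGC, also on the opposite strand), 83 to 76 and 56 to 48 bases before the start. Each window of 300 bases, 250 before and 50 after the start, was searched on both strands for 7 motifs. TATAAA was present in 13.6% of 32851 promoters, TGACNNNGC in 12.4% and TTGCNNAA in 10.8%. The letters AGGTCA (16.3% of promoters), TGTTCT (19.0%) and the motifs known as the PPAR direct repeat (0.0396%) and the HNF1 site (0.00913%) were not found in these 3 windows. A match describes the letters of the window and is not a binding site that these data measured.

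Each value is given as the log2 of the quantile-normalized intensity, on which a step of 1 is a doubling, and the floor lay at 4.53. The arrays of a group are given in the order of their numbers. Levels of different probe sets are not comparable with each other.

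Cdo1 read 9.74, 9.77 and 9.85 in Dysf_null QF and 10.15, 10.21 and 10.36 in Control QF. In TA it read 7.55, 8.07 and 7.82 in Dysf_null mice and 7.63, 7.76 and 7.68 in Control mice. Every QF array was above every TA array, and the QF groups of the 2 genotypes did not overlap, with Control the higher.

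Cyp2e1 read 9.84, 9.64 and 10.06 in Dysf_null QF and 10.34, 10.15 and 10.39 in Control QF. In TA it read 8.48, 8.0 and 8.50 in Dysf_null mice and 8.39, 8.33 and 8.42 in Control mice. Its order was that of Cdo1 apart from the TA groups, whose ranges overlapped in both genes.

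Mgst1 read 9.20, 9.63 and 9.63 in Dysf_null QF and 9.36, 9.86 and 9.96 in Control QF. In TA it read 8.33, 8.33 and 8.04 in Dysf_null mice and 8.47, 8.57 and 8.10 in Control mice. The muscles did not overlap, and within each muscle the genotypes did.

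Ces1d had 2 probe sets. The first, named with the suffix i_at and called Ces1d (i) here, read 7.59, 8.54 and 7.91 in Dysf_null QF and 7.49, 8.58 and 8.07 in Control QF, while it was at the floor on all 3 Dysf_null TA arrays and read 4.53, 5.80 and 4.53 in Control TA, where 2 arrays were at the floor. The second, with the suffix f_at and called Ces1d (f), read 7.89, 7.18 and 8.26 in Dysf_null QF, 8.31, 7.67 and 8.45 in Control QF, 4.53, 5.80 and 6.03 in Dysf_null TA, and 5.47, 5.93 and 5.86 in Control TA. With both, all QF arrays lay above all TA arrays and the genotypes overlapped within each muscle. The f in the second suffix usually marks probes that can match several members of a gene family, so the signal may include related carboxylesterases. Of those on the array, Ces1g was at the floor on all 12 arrays and Ces1c on 10 of 12, with a highest value of 4.76. Ces3a was at the floor on 9 of 12 arrays, with a highest value of 6.67 and means of 4.53 in Dysf_null QF, 5.24 in Control QF, 4.78 in Dysf_null TA and 4.56 in Control TA. In Dysf_null mice QF minus TA was -0.26 ± 0.46 for Ces3a (adjusted p = 0.94) and 0.39 ± 0.59 for Ces2g (0.934), the other carboxylesterase measured.

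Inmt had another pattern. It read 6.92, 5.93 and 5.80 in Dysf_null QF and 9.42, 9.22 and 9.60 in Control QF. In TA it read 6.43, 6.74 and 7.76 in Dysf_null mice and 7.42, 7.80 and 8.41 in Control mice. Control QF was the highest group and stood clear of the next, Control TA, while Control TA overlapped Dysf_null TA and Dysf_null TA overlapped Dysf_null QF, the lowest group.

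**Figure D1:**
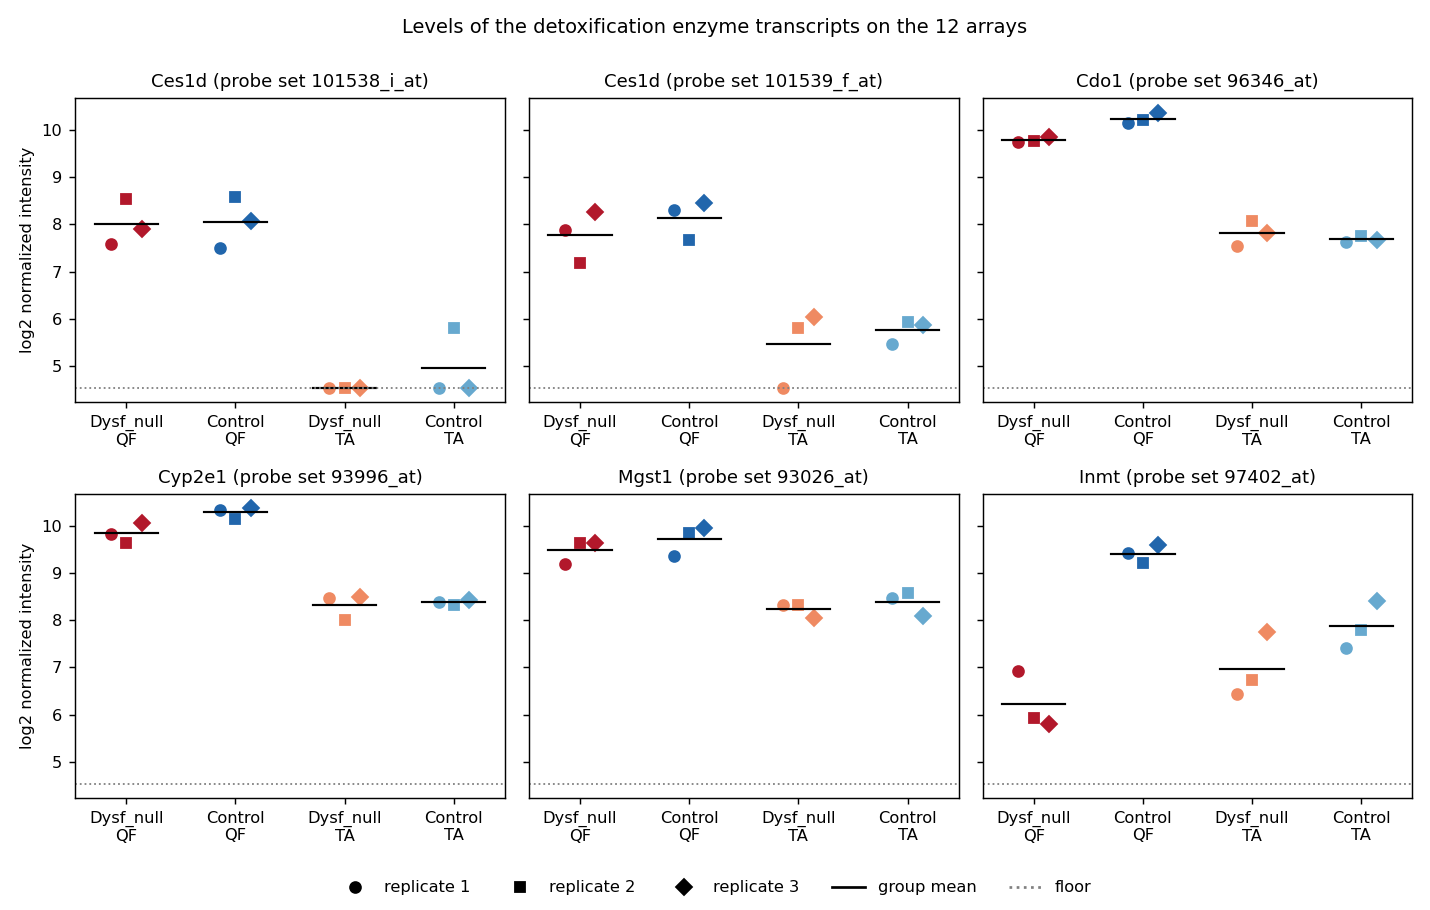
Log2 normalized intensity (vertical axis) of the 6 probe sets on the 12 arrays, by genotype and muscle (horizontal axis). Symbols mark the replicate numbers, lines are group means and the dotted line is the floor at 4.53. For Ces1d, Cdo1, Cyp2e1 and Mgst1 all QF arrays lie above all TA arrays, and for Inmt the Dysf_null QF arrays (5.80 to 6.92) lie far below the Control QF arrays (9.22 to 9.60).

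In Control mice, the comparison that chose the genes, QF minus TA was 3.10 ± 0.42 (SE) for Ces1d (i) and 2.39 ± 0.42 for Ces1d (f). It was 2.55 ± 0.15 for Cdo1, 1.91 ± 0.16 for Cyp2e1, 1.35 ± 0.20 for Mgst1 and 1.53 ± 0.39 for Inmt. For Ces1d (i) 2 of the 3 Control TA arrays were at the floor, so its difference depends on where the floor lay and was 4.06 with a floor at the 10th percentile. These differences describe the choice and are not tested. Over all probe sets 0.329% were called higher in QF of Control mice, that is, had an adjusted p under 0.05, and 0.736% were called in either direction. The QF arrays were all above the TA arrays for 5.60% of probe sets in Control mice.

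For Ces1d, Cdo1, Cyp2e1 and Mgst1 that choice rested on the Control arrays, but it was made with earlier results of these data known. In the Dysf_null arrays all 4 genes were again higher in QF than in TA. In Dysf_null mice their 5 probe sets were all called higher in QF, against 0.203% of all probe sets (21 of 10331; 0.300% were called in either direction). These 5 had no overlap between the muscles, as was so with higher values in QF for 4.51% of all. The calls are not independent of the choice, since the fit also drew its variances from the Control arrays. Arrays of a muscle with the same number also deviated together between genotypes. With the Dysf_null arrays alone, 2 of these 5 probe sets were called, Cdo1 and Ces1d (i), the latter as a description for the reasons given below. In tissue RNA of this kind, more cells of a type and more RNA per cell cannot be told apart. Ces1d (i) averaged 8.01 ± 0.49 in Dysf_null QF and was at the floor in Dysf_null TA (SD, n = 3 each), so it was at least 11.2-fold higher in QF. Its log2 difference was at least 3.49 ± 0.42 (SE). It entered the fit, which required 3 arrays above the floor, only through its QF arrays. Its Dysf_null TA values, all at the floor, had no spread. For these reasons its limma adjusted p of 0.00131 is a description and does not count as a test. The other Ces1d probe set averaged 7.77 ± 0.55 in Dysf_null QF and 5.45 ± 0.81 in Dysf_null TA, a difference of 2.32 ± 0.42 with an adjusted p of 0.04. Cdo1 averaged 9.79 ± 0.06 in Dysf_null QF and 7.82 ± 0.26 in Dysf_null TA, 3.92-fold higher in QF (1.97 ± 0.15, adjusted p = 5.57e-05). In each of these, the lowest QF array lay above the highest TA array. Cyp2e1 averaged 9.85 ± 0.21 in Dysf_null QF and 8.33 ± 0.28 in Dysf_null TA, 2.87-fold higher (1.52 ± 0.16, adjusted p = 0.000655). Mgst1 averaged 9.49 ± 0.25 in Dysf_null QF and 8.23 ± 0.17 in Dysf_null TA, 2.38-fold higher (1.25 ± 0.20, adjusted p = 0.0152). The choice of Inmt used the Dysf_null QF arrays, so its values are a description with no test. It averaged 6.22 ± 0.61 in Dysf_null QF and 6.98 ± 0.70 in Dysf_null TA, with overlapping arrays and a difference of -0.76 ± 0.39.

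Not all of these calls were equally firm. Ces1d (i) and Cdo1 were called under all 23 alternative settings or sets of arrays, with adjusted p up to 0.0258 and 0.0154. The calls of Ces1d (i) are a description, since in the main fit it passed the filter on dim signals only through its QF arrays. Cyp2e1 lost its call with the arrays of the 2 groups alone (0.0685). Mgst1 lost its call in 8 of 23, among them without Dysf_null QF 2 (0.0806) or 3 (0.0775) and without Dysf_null TA 1 (0.0506), 2 (0.0613) or 3 (0.11). Ces1d (f) lost it in 13 of 23, including 10 of the 12 that left out 1 array, those without Dysf_null QF 2 and without Control QF 2 being the exceptions, with adjusted p up to 0.184 without an array and 0.405 with the 2 groups alone. Both QF arrays numbered 2 stood apart from the rest: their median correlations with the other arrays were 0.876 (Dysf_null) and 0.866 (Control), while the 10 others had 0.926 to 0.959. Without these 2 arrays QF minus TA in Dysf_null mice was at least 3.22 for Ces1d (i), 2.62 for Ces1d (f), 1.98 for Cdo1, 1.62 for Cyp2e1, 1.18 for Mgst1 (adjusted p = 0.1) and -0.62 for Inmt.

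**Figure D2:**
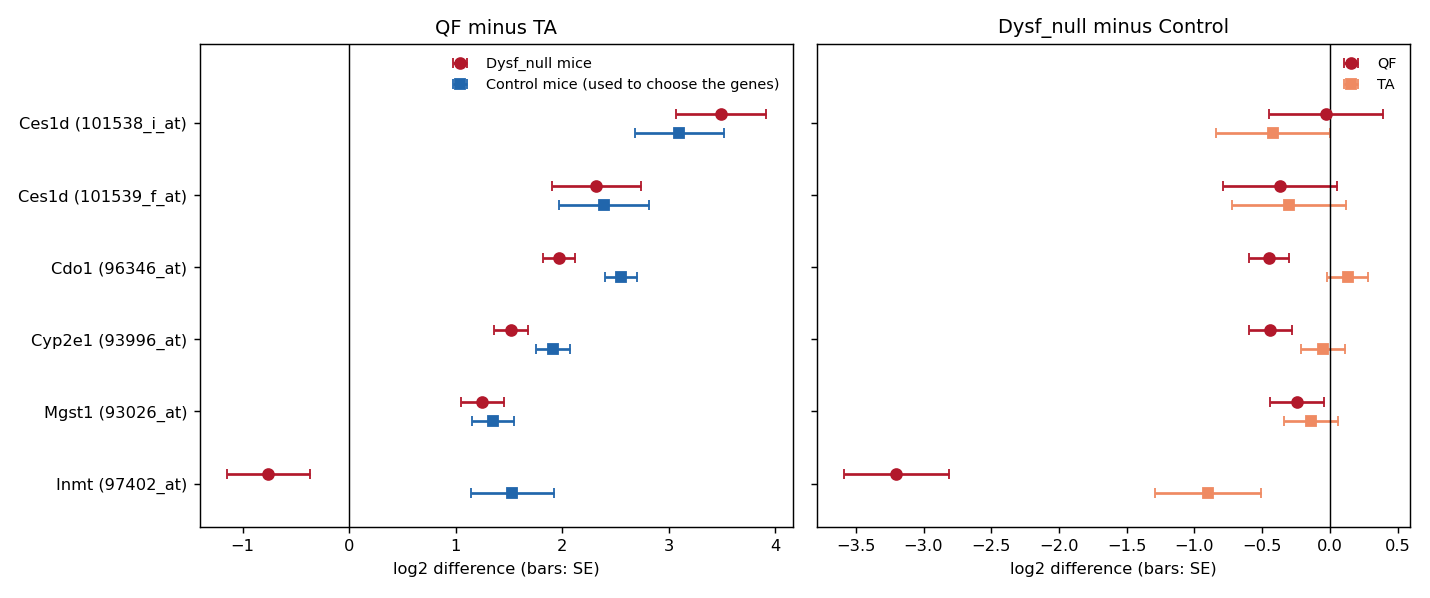
Log2 differences (horizontal axes, points) with their SE (bars) for the 6 probe sets (vertical axis), between muscles on the left and between genotypes on the right. In Dysf_null mice the muscle difference is above 1 for all probe sets except that of Inmt (-0.76), and the genotype difference of Inmt in QF is -3.20 while those of the other genes in either muscle are between -0.45 and 0.13.

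Between genotypes in QF, Inmt was 9.17-fold lower in Dysf_null than in Control mice, averaging 6.22 ± 0.61 in Dysf_null QF and 9.41 ± 0.19 in Control QF (difference -3.20 ± 0.39). This was the largest decrease of the 10331 probe sets in that comparison, and it is given as a description, since Inmt was chosen in part for it. Dysf, Inmt and Mgst1 all lie on chromosome 6 in the RefSeq promoter table, and the Dysf allele and other SJL alleles carried with it cannot be told apart in this design. The other 4 genes share the Control QF arrays with the choice, and none of them was called, where 0.155% of all probe sets were called lower and 0.455% called in either direction. Cdo1 differed by -0.45 ± 0.15 (95% interval -0.78 to -0.12, adjusted p = 0.407, unadjusted p = 0.0115). Cyp2e1 differed by -0.44 ± 0.16 (95% interval -0.80 to -0.09, adjusted p = 0.516, unadjusted p = 0.0186). Their groups did not overlap, as was so with lower values for 3.45% of all probe sets. In this comparison 699 of all 10331 probe sets had an unadjusted p under 0.05, 314 of them lower. The differences of Mgst1 (-0.24 ± 0.20, adjusted p = 0.984) and of Ces1d (-0.03 ± 0.42 for i and -0.37 ± 0.42 for f, adjusted p = 1.0 each) were within the spread of the arrays. Arrays of a muscle with the same number deviated together between genotypes, and with the number as a block within each muscle the calls over all probe sets in QF were 273 in place of 47. With that block Cdo1 had an adjusted p of 0.0602 and Cyp2e1 of 0.0746, the smallest over the 23 alternatives, in which neither was called.

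In TA no enzyme was called between genotypes by limma, with 0.407% of all probe sets called (42, or 159 with the number as a block). Of the 6 probe sets 1, that of Inmt, had an unadjusted p under 0.05, as did 498 of all 10331. These tests share the Control TA arrays with the choice of the genes. Inmt averaged 6.98 ± 0.70 in Dysf_null TA and 7.88 ± 0.50 in Control TA, with overlapping arrays and a difference of -0.90 ± 0.39 (95% interval -1.74 to -0.06, adjusted p = 0.965). The intervals of the other differences were -0.20 to 0.46 for Cdo1, -0.41 to 0.31 for Cyp2e1, -0.58 to 0.29 for Mgst1 and -1.22 to 0.61 for Ces1d (f), while both groups were at the floor on most arrays for Ces1d (i).

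The muscle difference in Dysf_null mice minus that in Control mice was -2.30 ± 0.55 for Inmt, -0.58 ± 0.22 for Cdo1, -0.39 ± 0.23 for Cyp2e1 and -0.10 ± 0.28 for Mgst1. It was -0.06 ± 0.60 for Ces1d (f), and none is given for Ces1d (i), which was at the floor on 5 of 6 TA arrays. These values use the arrays that chose the genes and are given without a test, and 0.0678% of all probe sets were called for this quantity. Inmt was thus the member whose muscle difference had opposite signs in the 2 genotypes, -0.76 in Dysf_null and 1.53 in Control mice.

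No other measured enzyme of the same pathways was called between muscles in Dysf_null mice, where 0.300% of all probe sets were called. At that share lists of this size would mostly hold no call, so the counts of 0 do not show that the pathways were alike between muscles. Over all probe sets 591 of 10331 had an unadjusted p under 0.05 in this comparison. Among 46 measured genes of oxidation, reduction and hydrolysis other than the members, 0 were called in QF minus TA of Dysf_null mice by limma (5 at an unadjusted p under 0.05, 1 higher and 4 lower), and the median difference was -0.04, beside -0.02 over all probe sets. Adh1, an alcohol dehydrogenase, differed by -1.24 ± 0.33 (adjusted p = 0.325), Aldh1a1, a retinal and aldehyde dehydrogenase, by -0.77 ± 0.15 (0.0626) and Cbr1, a carbonyl reductase, by 0.90 ± 0.30 (0.608). Among 32 conjugating enzymes and methyltransferases 0 were called (3 unadjusted), with a median of -0.03, and the glutathione transferase Gstp1 differed by 0.36 ± 0.14 (0.779). Among 18 genes of sulfur amino acid and glutathione metabolism 0 were called (2 unadjusted, median 0.07). Csad, which follows Cdo1 on the way to taurine, averaged 7.82 in Dysf_null QF and 7.43 in Dysf_null TA (0.39 ± 0.23, adjusted p = 0.897). Among 26 antioxidant and Nrf2-response genes 0 were called (7 unadjusted, 4 higher and 3 lower, median 0.04), with a difference of 0.69 ± 0.17 (0.19) for malic enzyme Me1. Among 19 xenobiotic receptors and their partners 0 were called (4 unadjusted, all higher, median 0.06), and Pparg, the nuclear receptor of fat cell formation, differed by 0.97 ± 0.28 (0.408).

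Between genotypes in QF these lists held 1 call, where 0.455% of all probe sets were called in either direction and 0.155% lower. For lists of this size 1 call is near that share, so the count is not a result about the lists. Aldh1a1 read 9.68, 9.44 and 9.84 in Dysf_null QF and 10.21, 10.60 and 10.70 in Control QF, a decrease of 0.85 ± 0.15 (difference -0.85, limma adjusted p = 0.028). Its call was lost in 12 of 23 alternatives, with both QF arrays numbered 2 left out among them (-0.69, adjusted p = 0.225). Of the 46 genes of oxidation, reduction and hydrolysis 11 had a positive difference in QF, with a median of -0.10, beside -0.01 over all probe sets. Gpx3, a secreted glutathione peroxidase, differed by -1.21 ± 0.25 in QF (adjusted p = 0.0598) and rose in QF over TA of Control mice by 1.44 ± 0.25 (0.0151, a call lost in 6 of 23 alternatives).

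Between muscles, most white fat cell markers differed in the same direction as the 4 enzymes. In Dysf_null mice 5 of 29 measured markers rose in QF over TA and 0 fell, where 0.203% of all probe sets rose. At an unadjusted p under 0.05 there were 17, all higher, against 591 of 10331 probe sets, 274 of them higher. Of the 29 differences 22 were positive and the median was 0.59. The most negative were those of Npr3 (-0.93 ± 0.46, limma adjusted p = 0.897) and Gpd1 (-0.34 ± 0.23, 0.897). Adipoq, the hormone adiponectin, rose by 1.12 ± 0.11 (adjusted p = 0.000254), the lipid droplet protein Cidea by 3.70 ± 0.27 (5.22e-05), Pck1, which supplies glycerol phosphate for fat storage, by 2.38 ± 0.27 (0.00091), fatty acid synthase Fasn by 1.04 ± 0.15 (0.00518) and Thrsp, a regulator of lipid synthesis, by 1.15 ± 0.17 (0.0081). The lipid droplet protein Cidec differed by 1.88 ± 0.36 (0.0557). The summed intensity of the 29 markers was 16682 to 17279 in Dysf_null QF, 17918 to 18240 in Control QF, 11689 to 12843 in Dysf_null TA and 12804 to 13372 in Control TA, and none of the 29 was at the floor on all arrays. In Control mice 7 of 29 rose and 0 fell, where 0.329% of all probe sets rose. Of 7 brown fat markers 2 rose in QF of Dysf_null mice, Cidea, which is on both lists, and Ucp1, the uncoupling protein, which was at the floor on all TA arrays and at least 3.03 log2 units higher. The part of fat in the enzymes' difference was not tested.

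No liver marker was called between muscles in Dysf_null mice, where 0.300% of all probe sets were called. Of 20 on the array 10 were above the floor often enough to be tested, 0 were called by limma (1 unadjusted, lower) and their median was -0.03. Apoa1, Fgb and Ambp were at the floor on all 12 arrays, and the summed intensity of the 20 was 349 to 526 in Dysf_null QF, 419 to 611 in Control QF, 458 to 545 in Dysf_null TA and 509 to 551 in Control TA. Fibroblast markers (0 of 23 called, 1 unadjusted), macrophage markers (0 of 17, 0 unadjusted), red cell markers (0 of 6, 1 unadjusted) and nerve markers (0 of 7, 1 unadjusted) were not called between muscles in Dysf_null mice, and 1 of 18 endothelial and mural markers rose, the smooth muscle actin Acta2 (1.16 ± 0.19, adjusted p = 0.0197, lost in 8 of 23 alternatives). The muscle genes Acta1 and Tnnt3 read at least 14.05 and 13.85 on all arrays, and Hoxa11, a limb patterning gene, was at the floor on all QF arrays and read 6.18 to 6.57 in Dysf_null TA and 6.29 to 6.49 in Control TA.

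Beside the low Inmt values in Dysf_null QF, markers of other cells were higher there. Of 23 fibroblast and stromal markers 3 rose in Dysf_null over Control QF (Postn, Serpinf1 and Thy1; 0.300% of all probe sets rose in QF), 22 differences were positive and the median was 0.67. Their summed intensity was 38997 to 51521 in Dysf_null QF, 25686 to 33919 in Control QF, 40350 to 54391 in Dysf_null TA and 31883 to 39404 in Control TA. For red cell markers 1 of 6 rose in QF (Bpgm) and 4 of 6 in TA, where 0.252% of all probe sets rose, and the sums were 29772 to 33983 in Dysf_null QF, 20552 to 21368 in Control QF, 28089 to 34509 in Dysf_null TA and 14672 to 20664 in Control TA. In QF the calls were lost in 3 of 23 alternatives for Postn, 8 for Serpinf1, 16 for Thy1 and 17 for Bpgm. In TA the calls were lost in 10 of 23 for Hba-a1 and 8 for Car2, while Alas2 and Bpgm were called in all 23. The uncoupling protein Ucp1 rose by 1.63 ± 0.27 in Dysf_null over Control QF (adjusted p = 0.0181, lost in 6 of 23). Between genotypes in QF 699 of all 10331 probe sets had an unadjusted p under 0.05, 385 of them higher. Of 17 macrophage markers 0 were called in QF by limma (5 unadjusted, all higher), 13 differences were positive and the median was 0.28. Their summed intensity was 5029 to 5586 in Dysf_null QF, 3810 to 4196 in Control QF, 4713 to 5335 in Dysf_null TA and 3886 to 4716 in Control TA. Between genotypes in TA 15 of the 17 macrophage differences were positive. The 1 marker called there, Cd68, was lower in Dysf_null mice (-1.27 ± 0.19, limma adjusted p = 0.0104, lost in 5 of 23). The part of these cells in the Inmt values was not tested. White fat markers were not called between genotypes in QF (0 of 29, 4 unadjusted, 1 higher and 3 lower, median 0.04). Their summed intensity was lower in Dysf_null QF (16682 to 17279) than in Control QF (17918 to 18240).

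**Figure D3:**
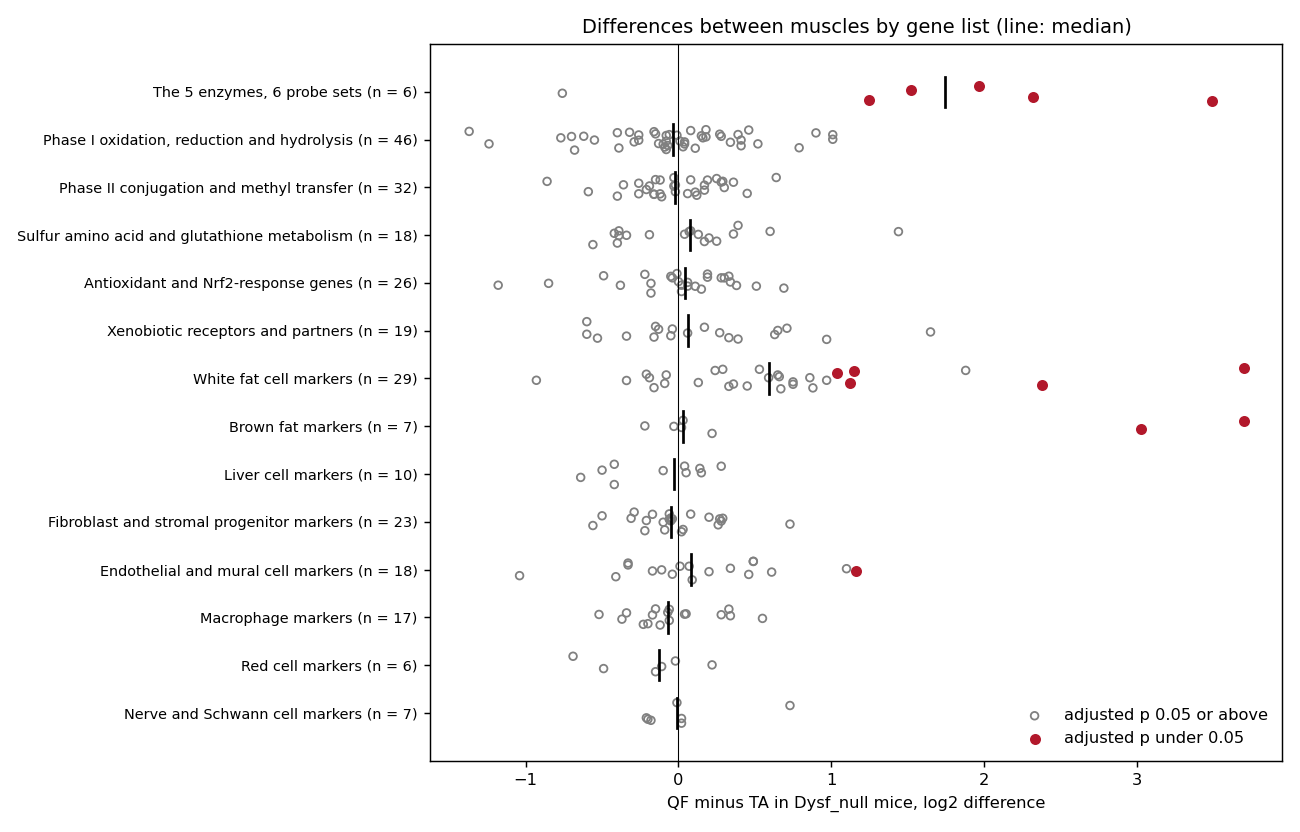
Log2 differences of QF minus TA in Dysf_null mice (horizontal axis) for the 6 probe sets of the enzymes and for the genes of 13 lists (vertical axis, n in brackets). Filled points have an adjusted p under 0.05 and lines are medians. The point of Inmt is a description, since its choice used the Dysf_null QF arrays. That of Ces1d (i) is one too, since it passed the filter on dim signals only through its QF arrays. White fat cell markers have a median of 0.59, and the lists of detoxifying enzymes have medians near 0.

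Over the 12 arrays, the genes whose pattern was most like the mean of the 5 enzymes were Pparg (Pearson r = 0.939), the protease Ctsl (0.932), the IGF carrier Igfbp3 (0.923), the tropomyosin Tpm3 (0.917), the redox-sensitive protein Park7 (0.915), Cidec (0.912), Cidea (0.899) and Adipoq (0.898). For Cdo1 alone the nearest were Pparg (0.98), Adipoq (0.974) and Cidea (0.962), for Cyp2e1 Pparg (0.962), Adipoq (0.953) and Cidec (0.945), and for Mgst1 Thrsp (0.955), Cidea (0.95) and Fasn (0.944). For Ces1d (f), its probe set of higher mean, they were the apolipoprotein Apoc1 (0.949), Pparg (0.939) and Cidea (0.911). For Inmt they were the metallothionein Mt2 (0.927), Retreg1 (0.912), a receptor for breakdown of the endoplasmic reticulum, and the phosphoinositide phosphatase Inpp5k (0.883), none of which is on a fat list. Mt2 read 9.42, 8.49 and 9.49 in Dysf_null QF, 11.12, 10.76 and 10.99 in Control QF, 9.33, 9.37 and 9.49 in Dysf_null TA and 9.98, 10.08 and 10.20 in Control TA. Like Inmt it was highest in Control QF, next in Control TA and low in both Dysf_null groups. Among the members, Cdo1 and Cyp2e1 had r = 0.969, Cdo1 and Mgst1 0.951 and Cyp2e1 and Mgst1 0.927, while Inmt had r from 0.152 to 0.322 with the other probe sets. These correlations describe arrays that share a genotype and a muscle. The members were chosen for higher values in QF of Control mice, and those arrays are among the 12. High r among them, and with other genes higher in QF, was thus in part set by the choice. After the group means were taken out the 3 member pairs named first had -0.446, 0.276 and -0.205. For these pairs the likeness lay between the groups and not among arrays of a group. Over all pairs of member probe sets such values ran from -0.665 (Mgst1 and Inmt) to 0.683 (Ces1d (f) and Cdo1). For the nearest genes of single members they ran from -0.033 (Cidea with Ces1d (f)) to 0.823 (Fasn with Mgst1).

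**Figure D4:**
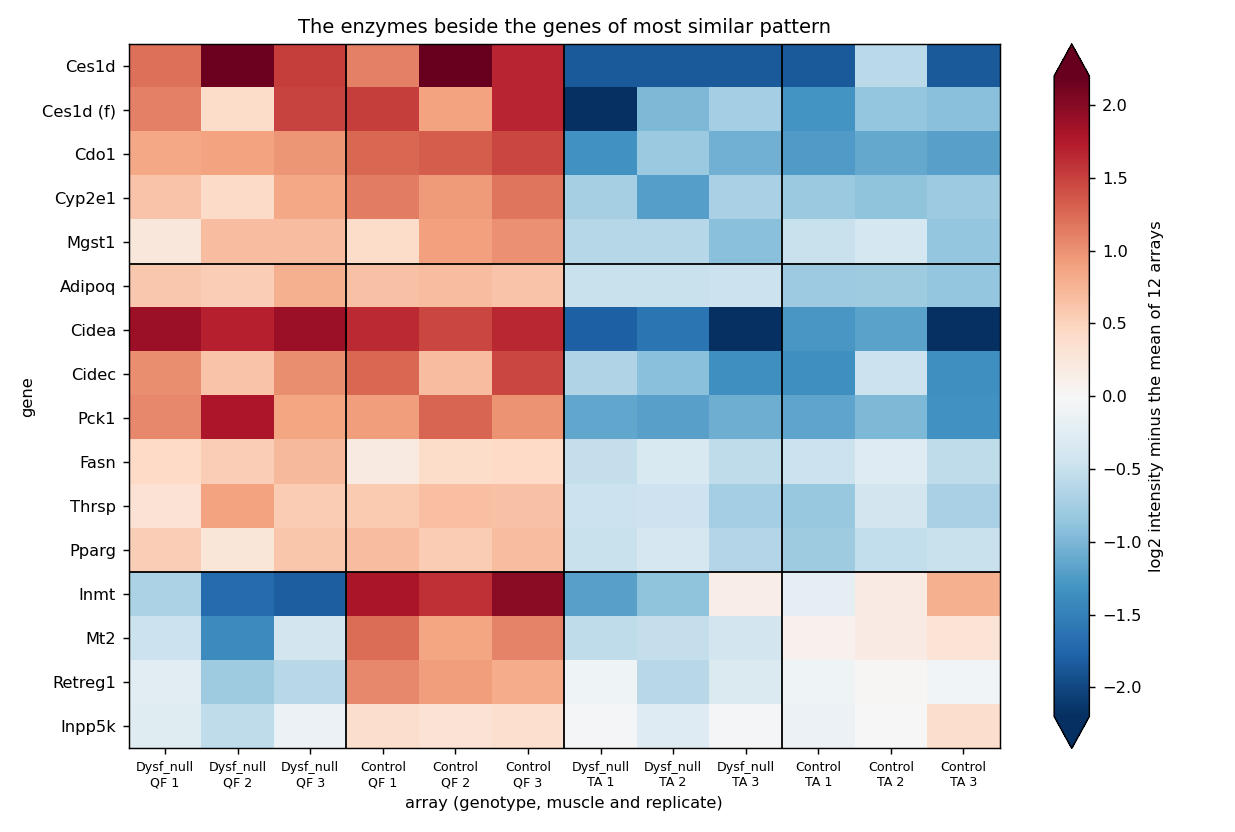
Log2 intensity minus the gene's mean over the 12 arrays (colour, red higher and blue lower) for the enzymes and genes of similar pattern or on the white fat list (rows), by array (columns, grouped by genotype and muscle). Ces1d without a letter is Ces1d (i). The upper 2 blocks are red in all 6 QF columns, and the lowest block, with Inmt and Mt2, is red in the 3 Control QF columns and blue in the 3 Dysf_null QF columns.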

How the data were processed

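Total RNA of QF and TA muscle from Dysf_null and Control mice was measured on 12 arrays, 3 in each of 4 groups taken from the labels. The authors deposited linear intensities, 1 for each probe set on each array, with a mean without the lowest and highest 2% of 200.11 to 200.16 on every array, as the values show. Further upstream steps were not given in the sources used here. Control probe sets (66 of 12488) were left out, and the rest were quantile normalized, floored at the 25th percentile (intensity 23.025) and put on the log2 scale, and the 10331 that exceeded the floor on 3 or more arrays entered the tests. Medians before normalization were 72.8 to 84.3, and 107.15 and 106.3 on the QF arrays numbered 2. No depth applies to arrays, and their number limits the precision (median SE 0.323).

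Group means were fitted to all 12 arrays with limma 3.58.1 (R 4.3.3; two-sided tests with variances moderated along the intensity and 8 residual degrees of freedom), with Benjamini-Hochberg adjustment over 10331 probe sets and a threshold of 0.05. The fit was also run on simulated data with independent noise on each array. Those data lacked the shared deviations of same-number arrays, so they do not show how the tests hold here. Figures used Python 3.11.15 and matplotlib 3.10.9. Probe sets were named from the platform's annotation (10833 with 1 symbol, 396 with several, 1193 not listed), with 0 symbols changed by a RefSeq table, and a gene entered a list by its kept probe set of highest mean. No probe set named Dysf was used to check the genotype.

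The members and the gene lists were chosen with earlier results of these data known. All members were named, with the 8 genes most correlated with their mean and the 3 most correlated with each member. From each list, names were drawn from up to 4 genes with the smallest p in QF minus TA of Dysf_null mice and up to 4 called in other comparisons. Not all of these are described. Also called in QF minus TA of Control mice were Cd68 (-1.60 ± 0.19, limma adjusted p = 0.000931), Cebpd (1.15 ± 0.16, 0.00314), Cebpa (1.07 ± 0.19, 0.0225) and Ugp2 (-0.83 ± 0.16, 0.035). Csad was named as the enzyme after Cdo1, Cidec from the correlated genes, and Gpx3 as called in Control mice. Npr3 and Gpd1 were named as the white fat markers of most negative difference. Deviations from the group means of arrays with the same number correlated between genotypes within a muscle (r 0.114 to 0.711, against -0.581 to 0.067 for other numbers). Between muscles within a genotype they did not (-0.141 to 0.123). In TA the same-number values were 0.182, 0.114 and 0.231. With 3 arrays a group the deviations sum to 0, so the values for other numbers are not independent of these. The labels give numbers and state no pairing, so whether arrays were paired between genotypes is not known. The alternatives changed the scaling, floor, filter, variance model, block and arrays.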

Additional observations from a re-analysis of the deposited data

How the results depend on the processing

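Counts of all calls depended on the settings. QF minus TA in Dysf_null mice gave 31 calls, 52 with array weights, 9 with the arrays of the 2 groups alone, 288 with a replicate block inside each muscle and 19 to 38 without 1 array (19 and 20 without Dysf_null TA 2 and 3). That block takes the spread between numbers out of the error, which between muscles is not a pairing. Dysf_null minus Control in QF gave 47, 7 without the intensity trend, 23 with array weights, 2 without both QF arrays numbered 2, 273 with the block and 21 to 82 without 1 array. With the QF arrays alone limma gave 0, with 406 at an unadjusted p under 0.05. Dysf_null minus Control in TA gave 42, 192 with array weights, 159 with the block and 14 to 45 without 1 array. QF minus TA in Control mice gave 76, 42 without the trend, 21 with the 2 groups alone, 875 with the block and 35 to 147 without 1 array, and the interaction 7, 32 with the block and 4 to 8 without 1 array. For the members called higher in QF of Dysf_null mice, all 5 probe sets of the 4 genes other than Inmt, the count was 2 with the 2 groups alone and 3 to 5 without 1 array, 3 of them without Dysf_null QF 3 or any Dysf_null TA array. For white fat markers, 5, it was 2 with the 2 groups alone, 9 with the block and 4 to 6 without 1 array. The replicate block changed no call of a member that was tested between genotypes.

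Some genotype differences, none of them called, changed sign or reached 0 without single arrays. For Ces1d (i) in QF (-0.03) the range without 1 array was -0.31 to 0.23, with 0.18 and 0.02 without Dysf_null QF 1 and 3 and 0.23 without Control QF 2. In TA the range for Ces1d (i) (-0.42) was -0.64 to 0.0, the latter without Control TA 2, when all remaining TA arrays were at the floor. It was -0.59 to 0.16 for Ces1d (f) (highest without Dysf_null TA 1). For Cdo1 it was -0.0 to 0.26 (lowest without Dysf_null TA 2) and for Cyp2e1 -0.14 to 0.11 (highest without Dysf_null TA 2). With a floor at the 10th percentile Ces1d (i) differed between muscles by at least 4.69 in Dysf_null and by 4.06 in Control mice, in place of at least 3.49 in Dysf_null and 3.10 in Control mice, since a lower floor lowers the TA values. The cause of the other changes was not tested.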

Other observations

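The 2 Ces1d probe sets did not follow each other within QF. In Dysf_null QF Ces1d (i) was highest on array 2 (8.54) and Ces1d (f) was lowest on it (7.18), and in Control QF array 2 likewise read 8.58 with the first and 7.67 with the second. Over the 12 arrays they had r = 0.882, and r = -0.235 after the group means were taken out.

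Means of 2 relatives of the enzymes differed less between muscles than between genotypes, but neither gene was called in these comparisons. Mgst3, a relative of Mgst1, averaged 10.46 in Dysf_null QF, 10.95 in Control QF, 10.58 in Dysf_null TA and 11.07 in Control TA. Nnmt, the nicotinamide methyltransferase related to Inmt, averaged 7.44 in Dysf_null QF, 6.32 in Control QF, 7.36 in Dysf_null TA and 6.78 in Control TA, so that its Dysf_null means were above its Control means, the reverse of Inmt. In QF the genotype difference was -0.50 ± 0.23 for Mgst3 (limma adjusted p = 0.742) and 1.12 ± 0.48 for Nnmt (0.69). In TA it was -0.49 ± 0.23 for Mgst3 and 0.58 ± 0.48 for Nnmt. These 2 genes were picked after their values were seen.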
